A study of Homo sapiens with 12 samples.

Results

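BCL2, BCL2L1, BCL2A1, MCL1, BCL2L11, BMF, BBC3, PMAIP1, BAX and BAK1 are the 10 genes of the BCL2 family described here, of 18239 genes that had a probe set of their own on the array. They were chosen as named members of the family, and each was read through the brightest of its own probe sets, by the mean over all arrays. All 10 lay above the filter on low values, a log2 level of 4.20, on each of the 12 arrays, so that none entered through 1 group alone, and they were tested among 13120 genes.

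RNA was measured on 12 Affymetrix expression arrays, so that each of 3 human cell lines was seen once with each of 4 treatments. OCI-LY3, OCI-LY10 and OCI-HBL1 are established lines of ABC-DLBCL, the activated B cell-like form of a large B cell lymphoma, and the study's title ties its question to MYD88-mutant disease. Combo cells received 50 µM IRAKi, an inhibitor of the IRAK kinases that carry the MYD88 signal, together with 500 nM CPI203, an inhibitor of BET bromodomain proteins. CPI203 cells received 500 nM of that compound alone, IRAKi cells 50 µM of that inhibitor alone, and Control cells neither, and no vehicle is named. By label, Combo, CPI203 and Control cells were taken at 24 h and IRAKi cells at 6 h. The protocol has IRAKi applied over 6 h and CPI203 over 18 h. It follows that drug and time cannot be told apart where IRAKi cells are set against Control or Combo cells, nor in a term that includes them. Each group held n = 3 arrays, 1 per line, and no line was repeated within a treatment. The p-values therefore measure only the spread between these arrays, with the cell line as a block.

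The family decides whether a cell permeabilises its mitochondria and dies. BCL2, BCL2L1 (BCL-XL), BCL2A1 (BFL1) and MCL1 hold the effectors BAX and BAK1 in check, and the BH3-only proteins BCL2L11 (BIM), BMF, BBC3 (PUMA) and PMAIP1 (NOXA) bind these guardians or activate the effectors directly. In B cells BCL2A1 and BCL2L1 are known NF-kB targets, and PMAIP1 acts mainly against MCL1 and BCL2A1.

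In Combo cells 4 of the 10 genes differed from Control cells at an adjusted p below 0.05, against 32.1% of all genes tested. BMF fell, 1 of 10 genes beside 16.7% of all genes that fell. MCL1, BCL2A1 and PMAIP1 rose, 3 of 10 beside 15.4% of all genes that rose. CPI203 alone left 1 gene called, BMF, which fell, beside 13.1% of all genes called, 6.92% risen and 6.21% fallen. IRAKi alone also left BMF as the 1 gene called, which fell, beside 0.168% of all genes called, 0.114% risen and 0.0534% fallen. Except for IRAKi, where few genes passed the test, the share of family genes called lay near the share of all genes. The median change of the 10 genes was -0.03 in Combo, 0.14 in CPI203 and 0.13 in IRAKi cells on the log2 scale, beside medians of all genes of -0.00312, 0.00811 and -0.000735.

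The 250 bases before the first RefSeq start are printed for the 3 called genes that the promoter table listed, because these genes moved in Combo cells, BMF down and the others up. BMF lies on the minus strand at chr15:40108880-40109129, PMAIP1 on the plus strand at chr18:59899746-59899995 and BCL2A1 on the minus strand at chr15:79971197-79971446, all in RefSeq's GRCh38.p14. Each is written 5′ to 3′ on the gene's own strand, and capitals mark matches to the motifs named after them.
BMF: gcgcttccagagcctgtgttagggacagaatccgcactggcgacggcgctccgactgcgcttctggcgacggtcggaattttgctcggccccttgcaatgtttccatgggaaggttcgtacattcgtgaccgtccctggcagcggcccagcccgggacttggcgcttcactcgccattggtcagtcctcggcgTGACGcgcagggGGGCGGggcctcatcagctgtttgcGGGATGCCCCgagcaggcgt
PMAIP1: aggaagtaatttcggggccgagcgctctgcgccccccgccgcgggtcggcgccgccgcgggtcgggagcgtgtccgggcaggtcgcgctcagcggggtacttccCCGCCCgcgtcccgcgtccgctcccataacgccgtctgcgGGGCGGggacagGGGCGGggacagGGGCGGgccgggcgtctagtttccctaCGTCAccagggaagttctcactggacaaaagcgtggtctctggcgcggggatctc
BCL2A1: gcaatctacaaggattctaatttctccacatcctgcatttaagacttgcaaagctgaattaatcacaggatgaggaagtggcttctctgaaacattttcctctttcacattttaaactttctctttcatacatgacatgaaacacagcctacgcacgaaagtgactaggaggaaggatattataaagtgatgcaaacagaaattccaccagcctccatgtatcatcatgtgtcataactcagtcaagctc
The motifs were searched on both strands: GTAAACA (FOXO), CACGTG (E-box), TGANTCA (AP-1), TGACG (CRE half-site), GGGCGG (GC box) and the NF-kB consensus. Matches to the CRE half-site and to the E-box can overlap, as they do before BAX. BMF held 1 CRE half-site, 1 GC box and 1 match to the NF-kB consensus, the last beginning 20 bases before the start. PMAIP1 held 4 GC boxes and 1 CRE half-site, and BCL2A1 held none of the motifs. Of 35116 windows of the same length, 21.218% held a CRE half-site, 42.639% a GC box, 9.961% an NF-kB consensus match, 6.345% an E-box, 6.573% an AP-1 site and 2.979% a FOXO site. In the other windows, BCL2L11 held the FOXO motif and 3 GC boxes, and BAX held 4 E-boxes, 1 CRE half-site and 1 GC box. BBC3 held 1 E-box and 1 AP-1 site, BCL2 and BCL2L1 held 1 CRE half-site each, and BAK1 held 2 GC boxes. Before another listed start of BMF none of the motifs matched. Sequences were matched for 9 of the 10 genes, all but MCL1. A match describes the letters and not a bound site.

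BMF, the BH3-only protein that senses loss of anchorage and cytoskeletal stress, changed most among the 10 genes, and did so in each of the 5 comparisons of treatments. Its level was 6.17 in OCI-LY3, 5.61 in OCI-LY10 and 5.75 in OCI-HBL1 in Combo cells, on the log2 scale of the deposited values. With CPI203 alone it was 7.51, 7.38 and 7.09 in the same lines, and with IRAKi alone 7.61, 7.18 and 6.69. In Control cells it was 8.41, 8.29 and 8.14. The Combo arrays lay below all others, the Control arrays lay above all others, and the CPI203 and IRAKi arrays overlapped. BMF fell by 2.44 on the log2 scale in Combo cells (SE 0.15), a 5.42-fold difference from Control with a limma adjusted p of 2.5e-05. The change was -2.24 in OCI-LY3, -2.68 in OCI-LY10 and -2.39 in OCI-HBL1.

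BMF was also lower with each drug alone than in Control cells. With CPI203 the change was -0.95 (SE 0.15, limma adjusted p = 0.0050), or 1.94-fold, and with IRAKi it was -1.12 (SE 0.15, limma adjusted p = 0.029), or 2.18-fold. Both were seen in 3 of 3 lines, with changes of -0.90, -0.91 and -1.05 under CPI203 and of -0.80, -1.12 and -1.45 under IRAKi in OCI-LY3, OCI-LY10 and OCI-HBL1. Neither call held in every fit that left out 1 line, and such fits hold fewer arrays. Of all 13120 genes they called 216 to 720 for CPI203 and 0 for IRAKi. With CPI203 the adjusted p was 0.059 without OCI-LY3 and 0.057 without OCI-LY10, and with IRAKi it ran from 0.20 to 0.33 when 1 line was left out, and leaving out just the IRAKi array of OCI-LY10 gave 0.096, with changes that stayed between -1.28 and -0.90. On that array, nonspecific control probe sets averaged 4.00, against 3.64 to 3.79 on the other arrays, and the part of this in the result was not tested.

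Combo cells had less BMF than cells given either drug alone. BMF fell by 1.48 relative to CPI203 cells (SE 0.15, limma adjusted p = 0.0050), the 1 of 10 genes called there beside 4.66% of all genes, 1.96% risen and 2.71% fallen. Relative to IRAKi cells BMF fell by 1.32 (SE 0.15, limma adjusted p = 0.00091). In that comparison 3 of 10 genes were called beside 18.7% of all genes, 1 fallen beside 10.5% and 2 risen beside 8.21%. The changes under the single drugs add up to -2.08, against the -2.44 seen in Combo cells. The interaction term, Combo minus CPI203 minus IRAKi plus Control, was -0.36 for BMF (SE 0.21, limma adjusted p = 0.71, 95% interval -0.83 to 0.11), so that a departure from additive log2 changes was not detectable. None of the 10 genes passed the limma test of that term, and 0 had an unadjusted p below 0.05, beside 0.00762% of all genes called. The call against CPI203 did not hold without any 1 line, with adjusted p from 0.058 to 0.11 and changes from -1.56 to -1.34. Those fits called 0 to 3 of all 13120 genes.

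The other BMF probe sets carried little signal. Their means over the 12 arrays were 4.29, 4.21 and 3.86, near or below the filter level of 4.20, and their changes in Combo cells were 0.06, -0.23 and -0.25, of which the 2 tested did not pass. The fall of BMF therefore rests on 1 probe set with a mean level of 7.15.

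**Figure D1:**
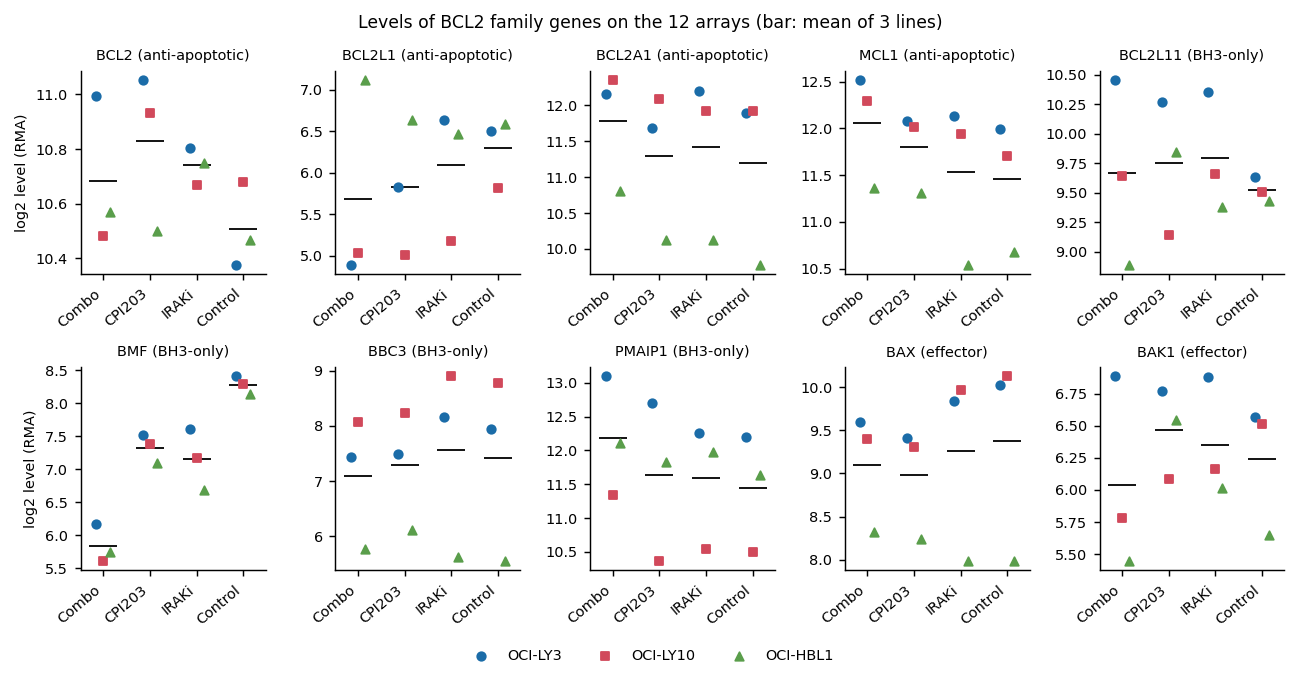
Log2 level of each of the 10 genes on every array, in 1 panel per gene with its own vertical axis, by treatment from Combo at the left to Control at the right. Points are single arrays with a marker for each cell line, bars are means of the 3 lines, and the BMF panel shows the 3 Combo arrays between 5.61 and 6.17, below the 3 Control arrays between 8.14 and 8.41.

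Of the guardians of the mitochondrion, MCL1 and BCL2A1 rose in Combo cells while BCL2 and BCL2L1 did not pass the test. MCL1, a short-lived protein on which many lymphomas depend, stood at 12.52 in OCI-LY3, 12.30 in OCI-LY10 and 11.36 in OCI-HBL1 in Combo cells. Its levels in these lines were 12.08, 12.01 and 11.31 with CPI203, 12.13, 11.94 and 10.54 with IRAKi, and 11.996, 11.70 and 10.68 in Control cells. OCI-HBL1 was lowest in each group, so the groups overlapped, but within each line the Combo array was the highest of the 4. MCL1 rose by 0.60 in Combo cells relative to Control (SE 0.15, limma adjusted p = 0.013), with 0.52, 0.60 and 0.68 in OCI-LY3, OCI-LY10 and OCI-HBL1. Relative to IRAKi cells it rose by 0.52 (SE 0.15, limma adjusted p = 0.040). With CPI203 alone the change was 0.34 (SE 0.15, limma adjusted p = 0.17), and with IRAKi alone 0.08 (SE 0.15, limma adjusted p = 0.85). Leaving out OCI-LY3 (adjusted p = 0.072) or OCI-LY10 (adjusted p = 0.095) ended the Combo call, at changes of 0.64 and 0.60. The call against IRAKi ended without any 1 line, with adjusted p from 0.12 to 0.15.

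BCL2A1, the guardian most closely tied to NF-kB in lymphoid cells, stood at 12.16 in OCI-LY3, 12.35 in OCI-LY10 and 10.81 in OCI-HBL1 in Combo cells. It stood at 11.68, 12.09 and 10.12 with CPI203, at 12.20, 11.93 and 10.13 with IRAKi, and at 11.89, 11.92 and 9.78 in Control cells. The rise was uneven, at 0.27, 0.43 and 1.03 in OCI-LY3, OCI-LY10 and OCI-HBL1, and averaged 0.58 (SE 0.17, limma adjusted p = 0.026). Without OCI-HBL1 it was 0.35 (adjusted p = 0.23), and without OCI-LY10 it was 0.65 (adjusted p = 0.090). Neither drug alone changed it beyond the test, with 0.10 under CPI203 (limma adjusted p = 0.76) and 0.22 under IRAKi (limma adjusted p = 0.59). The change relative to CPI203 cells was 0.48 (SE 0.17, limma adjusted p = 0.14).

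BCL2, the founding guardian, varied least of the 10 genes when each was read on its brightest probe set. Its 12 values lay between 10.38 and 11.05, and its changes were 0.17 in Combo, 0.32 in CPI203 and 0.23 in IRAKi cells, with limma adjusted p of 0.46, 0.23 and 0.55. The 95% interval of the Combo change ran from -0.19 to 0.54. Over the 6 BCL2 probe sets the Combo change ran from -0.48 to 0.23, and none was called against Control. A dimmer one, with a mean level of 6.01, fell by 0.76 relative to CPI203 cells (SE 0.15, limma adjusted p = 0.029).

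BCL2L1, read on its brightest probe set, was the guardian whose lines parted. Combo cells had 4.89 in OCI-LY3, 5.03 in OCI-LY10 and 7.12 in OCI-HBL1, against 6.50, 5.82 and 6.59 in Control cells. The change was thus -1.61 in OCI-LY3 and -0.78 in OCI-LY10, but 0.53 in OCI-HBL1. The mean change of -0.62 (SE 0.37, limma adjusted p = 0.24) had a 95% interval from -1.46 to 0.22. Without OCI-HBL1 it was -1.20 and passed the test (adjusted p = 0.048). Without OCI-LY3 or OCI-LY10 it was -0.13 and -0.54 and did not pass (limma adjusted p = 0.81 and 0.52). CPI203 alone gave -0.48 and IRAKi alone -0.21, with limma adjusted p of 0.45 and 0.84.

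Among the BH3-only genes PMAIP1 rose in Combo cells, opposite to BMF. It stood at 13.10 in OCI-LY3, 11.34 in OCI-LY10 and 12.11 in OCI-HBL1 in Combo cells. In the same lines it stood at 12.70, 10.36 and 11.83 with CPI203, at 12.26, 10.54 and 11.98 with IRAKi, and at 12.20, 10.50 and 11.63 in Control cells. The Combo array was the highest of the 4 in every line, although the groups overlapped because the lines differed. PMAIP1 rose by 0.74 relative to Control (SE 0.17, limma adjusted p = 0.0091), with 0.90, 0.83 and 0.48 in OCI-LY3, OCI-LY10 and OCI-HBL1. Relative to IRAKi cells it rose by 0.59 (SE 0.17, limma adjusted p = 0.040). The changes under single drugs were 0.19 with CPI203 (limma adjusted p = 0.53) and 0.15 with IRAKi (limma adjusted p = 0.74). Leaving out OCI-LY3 (0.66, adjusted p = 0.079) or OCI-LY10 (0.69, adjusted p = 0.060) ended the Combo call, and it also ended the call against IRAKi, with adjusted p of 0.24 and 0.21.

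BCL2L11 and BBC3 did not pass the test in any comparison of treatments. BCL2L11, the broad-binding activator BIM, stood at 10.46, 9.64 and 8.89 in Combo cells of OCI-LY3, OCI-LY10 and OCI-HBL1, against 9.64, 9.50 and 9.43 in Control cells. Its change was 0.82 in OCI-LY3, 0.14 in OCI-LY10 and -0.54 in OCI-HBL1, and the mean of 0.14 had a 95% interval from -0.46 to 0.74 (SE 0.27, limma adjusted p = 0.74). The second brightest BCL2L11 probe set, at a mean of 9.65 beside 9.68, rose in each line. Its mean change was 0.56 and did not pass (SE 0.21, limma adjusted p = 0.068), with 9.45 against 9.25 in OCI-HBL1. The third brightest rose in OCI-LY3, from 9.37 to 10.03, and fell in OCI-HBL1, from 9.25 to 8.67. BBC3, which binds all the guardians, stood at 7.44, 8.07 and 5.76 in Combo cells, against 7.94, 8.77 and 5.55 in Control cells. The mean change of BBC3 was -0.33 (SE 0.24, limma adjusted p = 0.32, 95% interval -0.86 to 0.20), and without OCI-HBL1, where it was 0.21, the mean was -0.60 and passed the test (adjusted p = 0.020). Without OCI-LY3 or OCI-LY10 the mean was -0.24 and -0.15 and did not pass (limma adjusted p = 0.65 and 0.77).

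The pore-forming effectors did not pass the test in any comparison of treatments either. BAX stood at 9.59, 9.40 and 8.32 in Combo cells of OCI-LY3, OCI-LY10 and OCI-HBL1, against 10.02, 10.13 and 7.99 in Control cells. It was lower in OCI-LY3 and OCI-LY10 and higher in OCI-HBL1, as were BBC3 and BCL2L1, and the mean change was -0.28 (SE 0.21, limma adjusted p = 0.36, 95% interval -0.75 to 0.20). Without OCI-HBL1 the BAX change was -0.58 in Combo cells (adjusted p = 0.032) and -0.71 in CPI203 cells (adjusted p = 0.047), and both then passed the test. Without OCI-LY3 or OCI-LY10 it was -0.20 and -0.05 in Combo cells (limma adjusted p = 0.70 and 0.91). In CPI203 cells the same fits gave -0.29 and -0.18 (limma adjusted p = 0.67 and 0.72), and none of these passed. BAK1, the effector that resides on mitochondria, stood at 6.89, 5.78 and 5.45 in Combo cells, against 6.56, 6.52 and 5.65 in Control cells. Its mean change was -0.20 (SE 0.24, limma adjusted p = 0.57, 95% interval -0.75 to 0.34).

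**Figure D2:**
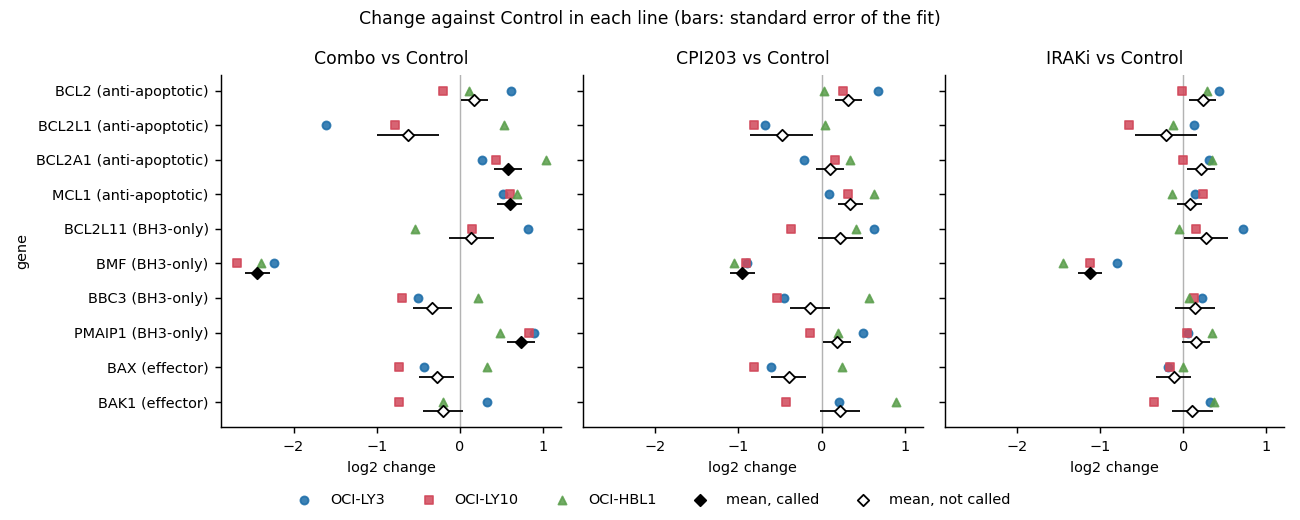
Log2 change of each gene in Combo, CPI203 and IRAKi cells relative to Control, with a coloured point for each of the 3 cell lines and a diamond for the mean (filled where called) with a bar of its standard error from the fit. BMF lies below 0 in every line under every treatment, and BCL2L1 in Combo cells spans -1.61 in OCI-LY3 to 0.53 in OCI-HBL1.

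The calls of the 3 risers depended on the scaling of the arrays, and their direction did not. The poly-A spike-in probe sets, which report RNA added in fixed amounts before labelling, were brighter than in Control cells by 0.48 ± 0.26 in Combo, 0.31 ± 0.17 in CPI203 and 0.23 ± 0.04 in IRAKi cells (SD, n = 3). Scaling each array to them moved the median of all genes by -0.484 in Combo, -0.306 in CPI203 and -0.229 in IRAKi cells. Under that scaling the Combo changes of MCL1, BCL2A1 and PMAIP1 were 0.12, 0.09 and 0.25 and were not called. BMF remained called at -2.92, and BCL2L1, BBC3, BAX and BAK1 became called at -1.11, -0.82, -0.76 and -0.69. Under that scaling 6157 of all 13120 genes were called in Combo cells. The rises of MCL1, BCL2A1 and PMAIP1 are thus relative to the other genes on the array. Each sample gave the same input of 150 ng RNA, so the levels are not amounts per cell. What made the spike-ins brighter was not tested.

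Other probe sets of the same genes gave a check on these readings. The 10 genes had 46 probe sets, of which 42 were tested among 30492, and in Combo cells 7 rose and 4 fell, 11 of 42 beside 28.9% of all probe sets called. The 4 brightest of 6 MCL1 probe sets rose by 0.48 to 0.76, and both PMAIP1 probe sets rose, the dimmer one by 0.99 (SE 0.17, limma adjusted p = 0.0021). The dim BCL2A1 probe set, with a mean level of 4.53, changed by 0.86 and did not pass (SE 0.34, limma adjusted p = 0.085).

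BCL2L11 had 14 probe sets, the most of the 10 genes, and 12 of them were tested. One with a mean level of 6.97 stood apart. It had 6.97, 6.68 and 6.19 in Combo cells of OCI-LY3, OCI-LY10 and OCI-HBL1, against 7.40, 8.62 and 7.28 in Control cells, without overlap. It fell by 1.15 in Combo cells (SE 0.26, limma adjusted p = 0.0089) and by 1.14 in CPI203 cells (SE 0.26, limma adjusted p = 0.024), and its change in IRAKi cells was -0.87 (limma adjusted p = 0.18). The other 11 tested changed by -0.42 to 0.56 in Combo cells and did not pass. For BAX the second probe set fell by 0.66 (SE 0.22, limma adjusted p = 0.047) where the brighter one did not pass. It was lower in OCI-HBL1 too, at 6.50 in Combo against 6.79 in Control cells, where the brighter one was higher. The dimmest BCL2L1 probe set stood at 3.53, 4.10 and 4.07 in Combo cells, against 4.90, 4.75 and 4.35 in Control cells, and was among the 4 counted as fallen (-0.77, SE 0.21, limma adjusted p = 0.020). Every Combo array lay below the filter level of 4.20, near the nonspecific probe sets, so that it passed the filter through other groups and had only a bound in Combo cells. Which transcripts each probe set reads is not given in the sources used here.

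**Figure D3:**
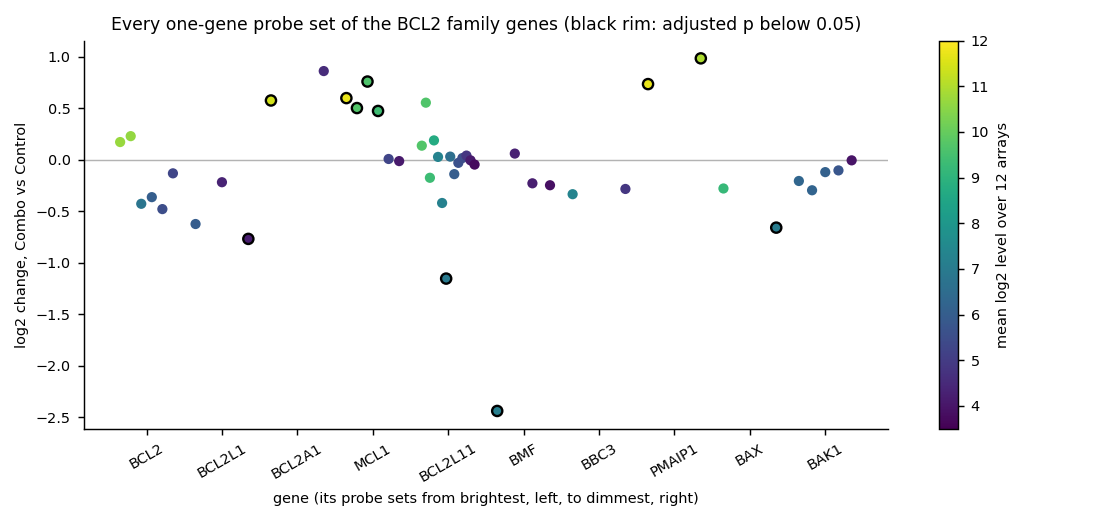
Log2 change in Combo cells relative to Control for every probe set of the 10 genes, from brightest to dimmest within a gene, coloured by mean log2 level, with a black rim where the adjusted p was below 0.05. The BMF probe set at -2.44 lies apart from the other BMF probe sets, and 1 BCL2L11 probe set at -1.15 lies below the rest of that gene.

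Levels of family genes differed between the cell lines, as did those of many other genes, with 46.6% to 48.5% of all genes called between 2 lines. Between OCI-LY3 and OCI-HBL1, 8 of 10 genes were called, all 8 higher in OCI-LY3, beside 47.2% of all genes. Between OCI-LY10 and OCI-HBL1, 6 of 10 were called, 4 higher and 2 lower in OCI-LY10, beside 48.5% of all genes. Between OCI-LY3 and OCI-LY10, 4 of 10 were called, 3 higher and 1 lower in OCI-LY3, beside 46.6% of all genes. The 4 arrays of a line are 4 treatments of 1 line, and treatment was a term of the fit.

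OCI-HBL1 held the least BBC3, BAX, BCL2A1 and MCL1 message. BBC3 averaged 7.76 ± 0.35 in OCI-LY3, 8.49 ± 0.40 in OCI-LY10 and 5.76 ± 0.25 in OCI-HBL1 (SD over n = 4 arrays). OCI-LY10 exceeded OCI-HBL1 in BBC3 by 2.73 (SE 0.20, limma adjusted p = 3.9e-06), the largest difference between lines among the 10 genes. BAX averaged 9.72 ± 0.27, 9.70 ± 0.41 and 8.13 ± 0.17 in OCI-LY3, OCI-LY10 and OCI-HBL1. For BCL2A1 the means in the same lines were 11.98 ± 0.24, 12.07 ± 0.20 and 10.21 ± 0.43, and for MCL1 they were 12.18 ± 0.23, 11.99 ± 0.25 and 10.97 ± 0.42. In these 4 genes every OCI-LY3 and OCI-LY10 array lay above every OCI-HBL1 array. The share of all genes so separated was not counted, so this describes these genes only. Only BBC3 among them was called between OCI-LY3 and OCI-LY10, by -0.73 (SE 0.20, limma adjusted p = 0.015).

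PMAIP1 had another order, with 12.56 ± 0.42 in OCI-LY3, 10.69 ± 0.44 in OCI-LY10 and 11.89 ± 0.21 in OCI-HBL1. It was higher in OCI-LY3 than in OCI-HBL1 by 0.67 and than in OCI-LY10 by 1.88, and lower in OCI-LY10 than in OCI-HBL1 by 1.20, and all 3 differences were called (limma adjusted p = 0.0039, 6.5e-06 and 1.0e-04). BCL2L1 was lowest in OCI-LY10, at 5.26 ± 0.38, against 6.70 ± 0.29 in OCI-HBL1, a difference of -1.45 (SE 0.32, limma adjusted p = 0.0042), with OCI-LY3 between at 5.97 ± 0.80. BCL2L11 and BAK1 were highest in OCI-LY3, by 0.79 and 0.86 over OCI-HBL1 and by 0.69 and 0.64 over OCI-LY10 (limma adjusted p = 0.017, 0.0071, 0.033 and 0.031). With the IRAKi array of OCI-LY10 left out, the count of calls between OCI-LY3 and OCI-LY10 was 1 in place of 4, beside 5495 in place of 6114 of all 13120 genes. On its brightest probe set BCL2 did not differ beyond the test between any 2 lines. BMF differed only between OCI-LY3 and OCI-HBL1, by 0.51 (SE 0.13, limma adjusted p = 0.0087).

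**Figure D4:**
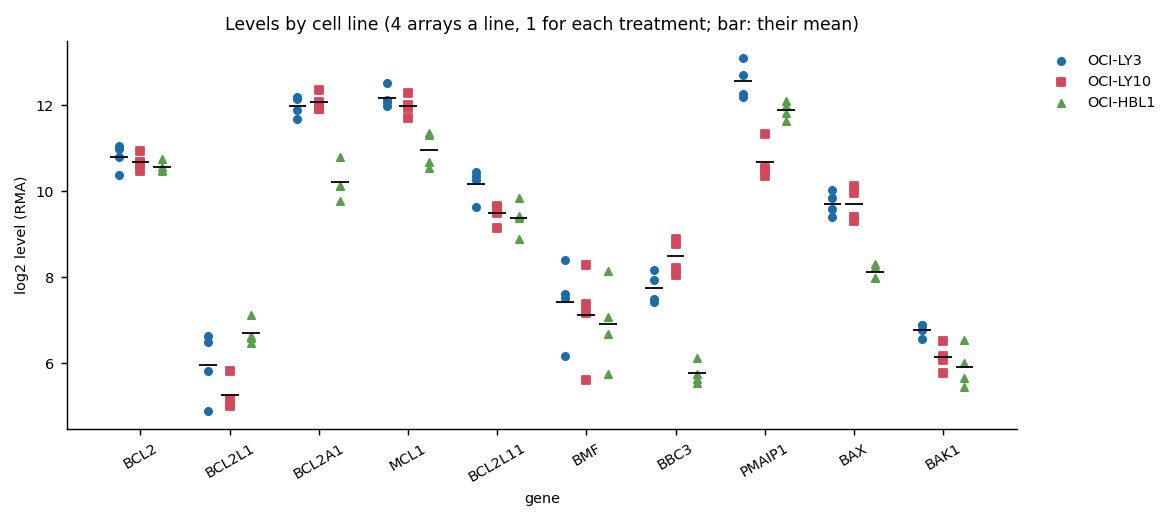
Log2 level of each gene by cell line, with 4 arrays per line, 1 for each treatment, and a bar at their mean. BBC3 and BAX lie lowest in OCI-HBL1 on every array, and BMF spreads over more than its difference between lines.

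Beyond the 10 genes, other members of the family moved in Combo cells in both directions. Of 13 on the list, 11 were tested and 3 rose and 2 fell, 5 of 11 beside 32.1% of all genes called, with a median change of 0.00264 beside -0.00312 for all genes, while BCL2L10 and HRK lay below the filter. BID, the BH3-only link from death receptors to mitochondria, fell by 1.06 (SE 0.19, limma adjusted p = 0.0023), and the guardian BCL2L2 (BCL-W) fell by 1.05 (SE 0.14, limma adjusted p = 0.00068). BNIP3L, a mitophagy receptor, rose by 0.81, BCL2L12 by 0.60 and the BH3-only gene BIK by 0.47 (limma adjusted p = 0.00077, 0.0025 and 0.041). In CPI203 cells 1 rose and 2 fell beside 13.1% of all genes called, and in IRAKi cells 0 of 11 were called by limma. Relative to IRAKi cells Combo cells had 2 risen and 1 fallen beside 18.7% of all genes called. BID in CPI203 cells fell by 0.85, BCL2L2 fell by 0.77 and BNIP3L rose by 0.57 (limma adjusted p = 0.019, 0.011 and 0.014).

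Downstream of the mitochondria, the death machinery showed 1 riser and 3 fallers among 13 genes tested in Combo cells, 4 of 13 beside 32.1% of all genes called, with a median of -0.184. DIABLO, which frees caspases from their inhibitors, rose by 0.55 (SE 0.12, limma adjusted p = 0.0055). The nuclease DFFB fell by 1.08, the protease HTRA2 by 0.92 and the caspase CASP6 by 0.83 (limma adjusted p = 0.0029, 0.0012 and 0.0028). CPI203 cells had 1 faller, DFFB at -0.82, IRAKi cells had 0 calls by limma, and HTRA2 was lower in Combo than in CPI203 cells by 0.66 (limma adjusted p = 0.035).

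Among transcription factors known to control family genes, 5 of 15 rose and 1 fell in Combo cells, beside 15.4% of all genes risen and 16.7% fallen, with a median of 0.16. FOXO3, known to drive BCL2L11 and BBC3, rose by 1.33 (SE 0.22, limma adjusted p = 0.0018), with 1.42, 1.89 and 0.70 in OCI-LY3, OCI-LY10 and OCI-HBL1. The NF-kB subunit REL rose by 0.87, but by 0.0076 in OCI-HBL1, the stress factor DDIT3 (CHOP) by 0.76 and FOXO1 by 0.47 (limma adjusted p = 0.019, 0.043 and 0.015). MYC, the 1 that fell, changed by -1.60 relative to Control (SE 0.21, limma adjusted p = 0.00059). Relative to CPI203 cells MYC fell by 1.03 in Combo cells (SE 0.21, limma adjusted p = 0.031), the 1 of 15 called there beside 4.66% of all genes. CPI203 cells had 1 riser, FOXO1 at 0.45 (limma adjusted p = 0.038), and IRAKi cells had 0 calls by limma.

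Most genes on a list of controllers of family members, which act on the proteins or, as CDK9, on transcription, rose in Combo and in CPI203 cells. Of 9 tested, 6 rose and 0 fell in each, beside 15.4% of all genes risen in Combo and 6.92% in CPI203 cells. The medians were 0.579 in Combo and 0.479 in CPI203 cells, against 0.038 in IRAKi cells, where limma called 0. This list, like the others, was chosen with earlier results of these data known, so its counts describe these genes only. CDK9, the kinase that keeps short-lived messages such as MCL1 transcribed, rose by 0.97 in Combo cells, and FBXW7 and GSK3B, which take part in the turnover of MCL1 protein, rose by 0.94 and 0.90 (limma adjusted p = 0.0030, 0.0011 and 0.00063). The dynein light chain DYNLL1, which can tether BCL2L11 to the cytoskeleton, rose by 0.60 (limma adjusted p = 0.0023). DYNLL2, which can tether BMF, rose by 0.78 in CPI203 cells (limma adjusted p = 0.012).

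**Figure D5:**
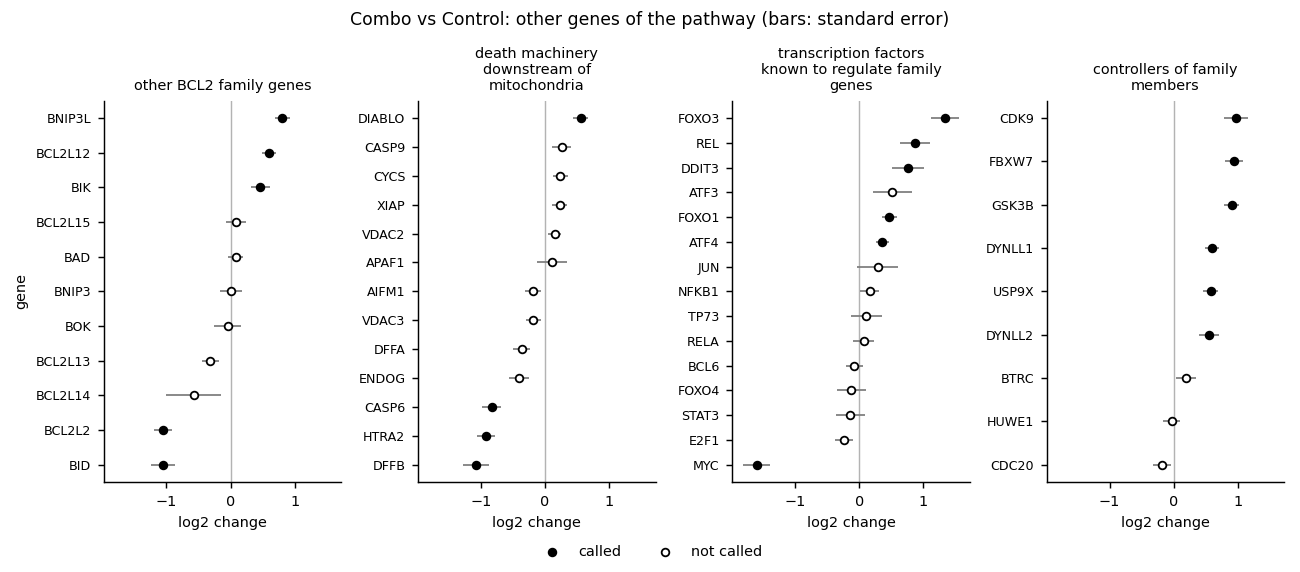
Log2 change of each tested gene on the 4 lists of related genes in Combo cells relative to Control, 1 panel per list, with bars of the standard error and filled points for genes called at an adjusted p below 0.05. Of the controllers of family members, 6 of 9 were called and all 6 lie above 0, beside 15.4% of all genes risen, with a list median of 0.579. The other lists hold called genes on both sides. The lists were chosen with earlier results of these data known.

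Over the 12 arrays, with the mean of each line removed, some genes ran closely beside the called members. The correlations are descriptions over arrays that share 4 treatments, so genes that any treatment moved alike score high. BMF ran most closely with WDR43 (r = 0.988), NDUFAF6 (r = 0.986) and BUB3 (r = 0.983). PMAIP1 ran with OSBP (r = 0.977), DDR2 (r = 0.949) and HMCES (r = 0.941). MCL1 ran with ZCCHC2 (r = 0.943), AKAP13 (r = 0.931) and BCL2L12 (r = 0.927), and BCL2A1 with KCTD1 (r = 0.959), ATP5ME (r = 0.954) and TMEM170A (r = 0.947). A high r does not mean a change of like size. In Combo cells KCTD1, ATP5ME and TMEM170A changed by 0.30, 0.095 and 0.64, against 0.58 for BCL2A1. Between members, BBC3 and BAX ran together most (r = 0.839), BCL2A1 and MCL1 followed (r = 0.688), and BMF ran against PMAIP1 (r = -0.876), BCL2A1 (r = -0.755) and MCL1 (r = -0.73).

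Array medians lay between 4.64 and 4.73, and HEXIM1, a known marker of BET inhibition, rose by 1.81 in CPI203 and by 1.497 in Combo cells and changed by -0.25 in IRAKi cells (limma adjusted p = 0.0014, 0.00058 and 0.59). All 10 B cell and ABC-DLBCL markers with a probe set had means above the filter level, between 6.92 and 12.26. Of 14 markers of T and NK, myeloid, stromal and epithelial cells, 9 had means below it, and PECAM1 had the highest mean at 5.34. Single arrays reached more, with PECAM1 at 6.27 to 7.39 in OCI-HBL1, EPCAM up to 6.92 and ITGAM up to 6.00. Of the B cell and ABC-DLBCL markers, 2 of 5 and 3 of 5 fell in Combo cells, beside 16.7% of all genes fallen. In CPI203 cells MS4A1 (-0.75) and 3 of 5 ABC-DLBCL markers fell, beside 6.21% of all genes fallen. PECAM1 fell there too (-1.03, limma adjusted p = 0.030). In IRAKi cells the ABC-DLBCL marker ENTPD1 fell (-1.22, limma adjusted p = 0.029), beside 0.0534% of all genes fallen. The part of these changes in the results on the family, BMF included, was not tested.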

How the data were processed

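RNA of 12 cultures was measured on Affymetrix arrays, and the deposited values are log2 levels of probe sets that the authors made with RMA in Affymetrix Expression Console 1.1, per the submitters' processing notes. No genome build or probe library for these arrays is named in the labels. RMA quantile-normalizes arrays, so a change shared by most genes is removed.

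The table held 49386 probe sets, of which 45253 carried 1 gene in the platform annotation, 1327 carried several, and 99.82% of the former matched the RefSeq gene table. A gene was read through its brightest one-gene probe set and tested if this exceeded the 40th percentile, a log2 level of 4.20, on 3 or more arrays, so 13120 of 18239 genes entered and 5119 did not. All 12 arrays were fitted with limma 3.58.1 in R 4.3.3 (package data.table, version 1.17.8) with treatment and cell line as terms, residual degrees of freedom of 6 and prior ones of 3.66. Tests were two-sided with Benjamini-Hochberg adjustment over all genes tested, and a gene was called below 0.05. The number of arrays limits the precision.

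The cell line pairs the samples, since each line was used in every group. Deviations of arrays of the same line under other treatments correlated at 0.819 to 0.907 over 18 pairs, against -0.501 to -0.351 over 36 pairs of different lines. Within a line a change is 1 array against 1 array and was not tested.

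The 10 members and all lists were chosen with earlier results of these data known. The text names all members, up to 4 called genes per list, comparison and direction by size of change, the 3 genes most alike to each member called in Combo, and HEXIM1. Probe sets singled out within a gene were chosen after their values were seen. Steps were tested on simulated data. Alternatives were averaging all probe sets of a gene, the second brightest probe set, no filter, a filter at the 60th percentile (5.70), median centring, poly-A scaling, trend and robust estimation, no replicate block, a random block, only the 2 groups compared, and leaving out single lines, treatments or 1 array. Probe sets of several genes or none were not used here, and 1 list and some genes of other lists are not reported here. Motifs were searched with python 3.11.15 and pandas 2.3.3, and figures drawn with matplotlib 3.10.9.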

Additional observations from a re-analysis of the deposited data

Results flagged for a closer look

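On its brightest probe set, each of 3 genes moved one way in some cell lines and the opposite way in another by more than 0.5 on the log2 scale. These are 1 array against 1 array per line, and the difference between lines was not tested. BBC3 in CPI203 cells changed by -0.54 in OCI-LY10 and by 0.57 in OCI-HBL1. Its dimmer probe set did not rise in OCI-HBL1, at 4.14 with CPI203 against 4.21 in Control cells. BCL2L1 in Combo cells changed by -1.61 in OCI-LY3, by -0.78 in OCI-LY10 and by 0.53 in OCI-HBL1. The dimmer BCL2L1 probe sets, near the filter level, were lower in Combo than in Control cells in each line. BCL2L11 in Combo cells changed by 0.82 in OCI-LY3 and by -0.54 in OCI-HBL1. The second brightest BCL2L11 probe set rose in each line, and the third brightest rose in OCI-LY3 and fell in OCI-HBL1.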

How the results depend on the processing

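With 3 arrays per group, the number of family genes called depends on how the cell line is handled. Leaving out each line in turn gave 0 to 2 calls for CPI203, 0 to 0 for IRAKi, 1 to 6 for Combo against Control, 0 to 0 for Combo against CPI203 and 1 to 3 for Combo against IRAKi, fits that hold fewer arrays. Of all 13120 genes these fits called 216 to 720, 0, 2072 to 3420, 0 to 3 and 526 to 1704 in that order. With no replicate block the counts were 0, 0, 1, 0 and 0 in that order, and in Combo against Control BMF was the gene called (adjusted p = 0.0037). Taking a gene's mean over probe sets, or its second brightest probe set, gave 0 for CPI203, 0 for IRAKi and 0 for Combo against CPI203. Beside these, the mean of probe sets called 1834, 13 and 606 of 11840 genes. The fit of every probe set called 3134, 27 and 1038 of 30492. The second BMF probe set reversed the sign, to 0.062 in Combo against Control, 0.20 against CPI203, 0.23 against IRAKi and -0.0080 between OCI-LY3 and OCI-HBL1, and its mean level of 4.29 is near the filter. A fit of only the 2 groups, or one without the OCI-LY10 IRAKi array, gave 0 for IRAKi and 1 for Combo against IRAKi. Over all genes both called 0 for IRAKi, and for Combo against IRAKi they called 977 and 1487. For Combo against IRAKi poly-A scaling and a random block each gave 1, and for Combo against CPI203 trend and robust estimation gave 2. Of all 13120 genes these fits called 2290, 2080 and 954. Between OCI-LY3 and OCI-LY10 the mean of probe sets gave 7 calls and the fit without the OCI-LY10 IRAKi array gave 1, and leaving out 1 treatment gave 2 to 4. Over all genes these fits called 6068 of 11840, 5495 of 13120 and 4788 to 5702 of 13120. Leaving out 1 treatment gave 7 to 8 calls between OCI-LY3 and OCI-HBL1 and 6 to 6 between OCI-LY10 and OCI-HBL1. Of all 13120 genes it left 5002 to 5677 and 5188 to 5888 called. The cause of these shifts was not tested beyond the smaller number of arrays or other probe sets that each setting uses. The interaction term gave 0 family genes under each alternative run, beside 0 to 1 of all genes. Over all genes, no replicate block left 465 called in Combo, 4 in CPI203 and 0 in IRAKi cells, against 4214, 1723 and 22 with the block.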
